A study of Homo sapiens with 12 samples.

Results

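Lysosome and autophagy genes were followed in A375 cells treated with ligands of the nuclear receptor PPARγ. The group was defined by name as 38 genes that encode the lysosome's enzymes, membrane proteins, proton pump and lipid transporters, 2 transcription factors that regulate them, and proteins of the autophagy machinery. All 38 were among the 23705 genes with counts, and 37 of them were among the 13522 genes that passed the filter on low counts. *CTSS*, the cysteine protease cathepsin S, had between 4 and 11 counts per library and was not tested.

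A375 is a cell line from a human skin melanoma metastasis. Cells were kept for 24 h in DMSO as the vehicle, in rosiglitazone (RGZ) at 5 μM, in T0070907 at 2 μM, or in both at these doses. RGZ is a PPARγ agonist and T0070907 a PPARγ antagonist, so that the combination asks which effects of RGZ the antagonist changes. Each of the 4 conditions had 3 libraries, 1 from each of 3 independent experiments in this single cell line, and the technical replicates of a condition had been pooled as RNA within each experiment. This is bulk RNA, in which a change in the share of cells that express a gene and a change in RNA per cell cannot be told apart.

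Lysosomes are acidic organelles that degrade proteins, glycans and lipids delivered by endocytosis and by autophagy, the process in which a double membrane encloses cytoplasm and fuses with the lysosome. Transcription factors of the MiT/TFE family, which includes TFEB, TFE3 and the melanocyte regulator MITF, bind E-box motifs near many lysosomal genes and raise their transcription when nutrients are scarce. Melanocytes and melanoma cells use the same pathway to build melanosomes, which are lysosome-related organelles.

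Libraries held between 8319455 and 11375227 counts. The lysosome and autophagy genes together took 0.422 ± 0.0258% of the counts under vehicle, 0.424 ± 0.0276% under RGZ, 0.431 ± 0.0223% under T0070907 and 0.433 ± 0.019% under the combination (SD, n = 3 each). These shares differed by less than the spread between experiments. As a readout of PPAR activity, *PLIN2*, whose product coats lipid droplets, had 386 ± 19.9 CPM under vehicle, 2374 ± 242 CPM under RGZ, 176 ± 3.73 CPM under T0070907 and 518 ± 196 CPM under the combination (SD, n = 3 each). In the 3 combination libraries *PLIN2* stood at 362, 454 and 737 CPM, all below the RGZ libraries and spread over a wider range than under vehicle. Levels in CPM are counts scaled to the library's total with edgeR's TMM factors. Of 8 melanocyte markers, *SOX10* (1558 to 4984 counts per library), *MITF* (240 to 666) and *S100B* (58 to 758) were well above the floor of 3 counts, whereas *TYR* had 0 counts in every library, *DCT* 0 to 1, *MLANA* 0 to 6, *PMEL* 3 to 13 and *MIA* 2 to 13. Of 4 leukocyte markers, *PTPRC* had 0 to 2 counts per library, *CD3E* 0 to 1 and *CD14* 4 to 13, while *CD68*, which is also a lysosomal gene, had 301 to 852.

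Members differed widely in abundance. Per kilobase of the longest annotated transcript, the median level of the 37 tested members in the vehicle libraries was 22.3 CPM per kb, and that of the 13305 tested genes with a known length was 7.81 CPM per kb. The most abundant member was *CD63*, a tetraspanin of late endosomes and exosomes, at 343 ± 45.8 CPM per kb (SD, n = 3), a level that 99.2% of the genes did not exceed. *CTSZ*, a carboxypeptidase, followed at 169 ± 21.6 CPM per kb, *PSAP*, the precursor of the saposins that help to degrade sphingolipids, at 147 ± 16.2 CPM per kb, and *CTSD*, the main aspartic protease of lysosomes, at 98.1 ± 11 CPM per kb. A run of 7 genes lay close together behind them, from *CTSC* at 61.7 ± 1.20 CPM per kb through *GRN*, *PPT1*, *CTSB*, *CTSL* and *NPC2* to *LAMP1* at 49.5 ± 2.33 CPM per kb, and each differed from the next by less than the larger of their SDs. At the low end were *TFEB* at 0.932 ± 0.314 CPM per kb and the collagen-degrading protease *CTSK* at 3.81 ± 1.17 CPM per kb. *TFE3* stood at 39.1 ± 4.50 CPM per kb and was the more abundant of the 2 regulators among the members.

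**Figure D1:**
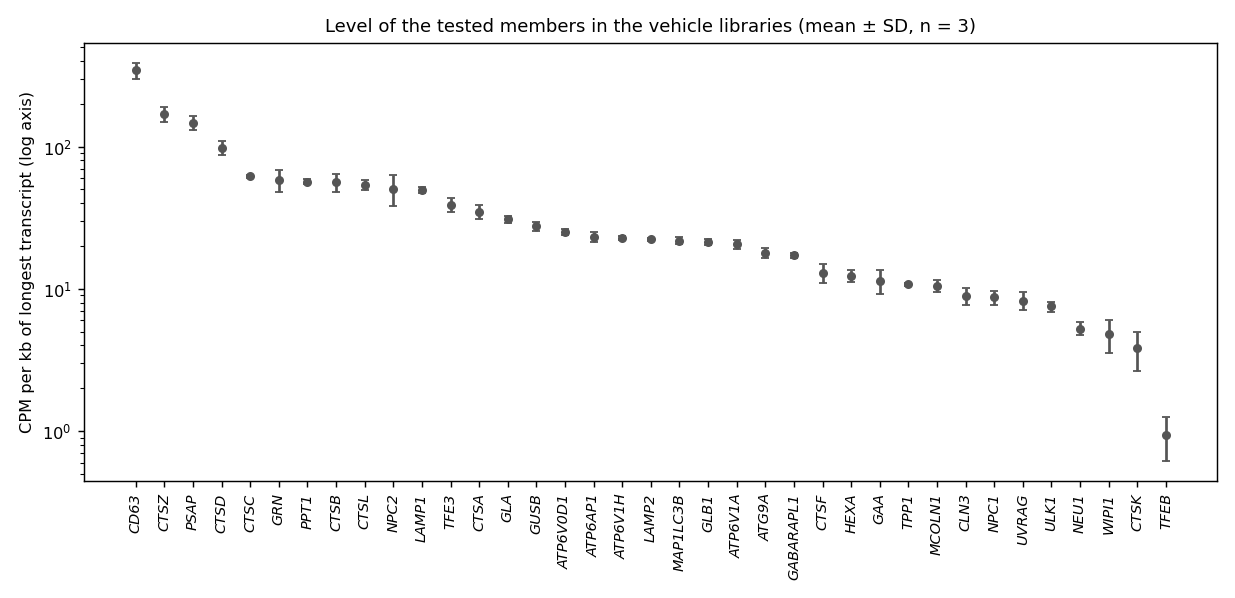
Mean level of each tested member in the 3 vehicle libraries, in CPM per kilobase of its longest transcript on a log axis, with bars for the SD. Levels run from 0.932 CPM per kb for TFEB to 343 CPM per kb for CD63.

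Promoter sequence was read for 29 of the members from RefSeq (GRCh38.p14), in 40 windows that each span 250 bases before to 50 bases after a transcription start. CACGTG, the palindromic core of the E-box that MiT/TFE factors recognise, was present in windows of 10 members, *LAMP1*, *CD63*, *CTSA*, *CTSD*, *CTSF*, *GAA*, *NEU1*, *MCOLN1*, *CLN3* and *ATP6V0D1*, which was 34.5% of the 29. Over all 27305 genes with a window the share was 8.77%, and over all 35116 windows it was 7.26%. The longer palindrome TCACGTGA, which contains CACGTG, was found in 6 members (20.7%, against 1.18% of all genes and 0.98% of all windows). GTCACGTGAC, which contains both, was found in 2 members, *GAA* and *MCOLN1* (6.9%, against 0.421% of all genes and 0.353% of all windows). The nuclear receptor half-site AGGTCA was searched on both strands and was found in 4 members (13.8%, against 16.5% of all genes and 13.8% of all windows). The direct repeat AGGTCANAGGTCA that PPARs bind with RXR was found in 0 members, 0.0293% of all genes and 0.0228% of all windows. These are matches of letters, and binding was not measured.

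Stretches of these windows are shown for genes whose RNA is described below, as upstream bases read 5′ to 3′ on the gene's strand. Capitals mark CACGTG, extended to TCACGTGA or GTCACGTGAC where those letters are present. *GAA*, *NEU1* and *CTSF* passed the test in at least 1 comparison with the replicate block described below, and none of them without it. *LAMP1* and *MCOLN1* are shown as genes with the motif that passed in none, and the other members with it, *CD63*, *CTSA*, *CTSD*, *CLN3* and *ATP6V0D1*, did not pass either.
GAA, chr17:80101485-80101575, + strand: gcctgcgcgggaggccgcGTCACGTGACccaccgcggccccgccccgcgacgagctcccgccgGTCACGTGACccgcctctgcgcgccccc
NEU1, chr6:31862922-31862967, - strand: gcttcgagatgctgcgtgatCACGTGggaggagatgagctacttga
CTSF, chr11:66568632-66568749, - strand: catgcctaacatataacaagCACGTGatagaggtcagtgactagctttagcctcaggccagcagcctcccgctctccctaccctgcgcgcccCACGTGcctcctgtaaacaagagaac
MCOLN1, chr19:7522563-7522623, + strand: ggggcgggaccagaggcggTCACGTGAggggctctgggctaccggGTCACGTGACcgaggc
LAMP1, chr13:113297027-113297236, + strand: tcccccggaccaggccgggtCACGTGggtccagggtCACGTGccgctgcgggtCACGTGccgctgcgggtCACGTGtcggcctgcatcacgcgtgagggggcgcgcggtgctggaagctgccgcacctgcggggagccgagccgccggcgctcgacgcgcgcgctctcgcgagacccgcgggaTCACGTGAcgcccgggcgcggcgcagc
The windows of *CTSL*, *NPC2* and *CTSC*, the members with the most repeated changes below, held no CACGTG. Their last 80 bases before the start are shown for comparison.
CTSL, chr9:87726039-87726118, + strand: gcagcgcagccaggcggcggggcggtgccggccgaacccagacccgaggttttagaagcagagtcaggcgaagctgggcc
NPC2, chr14:74493513-74493592, - strand: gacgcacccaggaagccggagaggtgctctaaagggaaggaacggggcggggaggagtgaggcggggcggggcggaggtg
CTSC, chr11:88337737-88337816, - strand: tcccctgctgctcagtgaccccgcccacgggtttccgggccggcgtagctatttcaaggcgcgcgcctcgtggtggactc

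The comparison of RGZ with vehicle asks which of these genes respond to the agonist. *CTSL* and *NPC2* rose most, by 0.62 and 0.56 on the log2 scale, *CTSC*, *NEU1* and *PSAP* rose less, and *CTSF* fell, in the fit that takes the experiment into account. edgeR's quasi-likelihood test without a term for the experiment called 1 member, *CTSL*, higher (2.7% of the members, against 0.947% of all tested genes), and 0 lower (0.288% of all genes), with 5 members at an unadjusted p under 0.05. Libraries of the same experiment deviated together, and with the experiment as a replicate block 5 members were called higher (13.5%, against 4.95% of all genes) and 1 lower (2.7%, against 4.35%). DESeq2 called 2 members without the block, *CTSL* and *NPC2*, among 302 of all genes. With the block it called 4, these and *CTSC* and *PSAP*, among 896 of all genes. The median log2 fold change of the members was -0.02, and that of all tested genes -0.01. Values below are from the fit with the block unless stated. Their p-values set a change against the spread left after each experiment's own level was taken out. They cover only these 3 experiments of a single cell line.

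*CTSL* encodes cathepsin L, a cysteine endopeptidase that degrades proteins in the lysosome. Its level was 107, 125 and 120 CPM in the vehicle libraries of experiments 1, 2 and 3, 153, 211 and 179 CPM under RGZ, 93.1, 113 and 109 CPM under T0070907, and 125, 129 and 143 CPM under the combination. Every RGZ library was above every other library, and the combination libraries were above the vehicle library of their own experiment and, with no overlap, above the vehicle group. The log2 fold change of RGZ against vehicle was 0.62 ± 0.07 (SE, adjusted p = 8.93e-06), a fold of 1.54. Without the block it was 0.63 ± 0.11 (adjusted p = 0.0229), and this call was lost without vehicle replicate 1 or 3 and without RGZ replicate 2 or 3. With the block, *CTSL* was called in 12 of 12 fits that each left out 1 library.

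*NPC2* encodes a small soluble protein that takes cholesterol from the lysosome's lumen and hands it to the membrane protein NPC1. It was at 65.5, 92.8 and 59.4 CPM under vehicle, 96.3, 124 and 98.1 CPM under RGZ, 62.0, 75.4 and 61.7 CPM under T0070907, and 80.8, 97.3 and 81.0 CPM under the combination. Experiment 2 was the highest in every condition, and the RGZ libraries did not overlap the vehicle libraries, although RGZ in experiment 1 exceeded vehicle in experiment 2 by little. The log2 fold change of RGZ against vehicle was 0.56 ± 0.07 (SE, adjusted p = 3.09e-05), and the gene was called in 12 of 12 fits that left out 1 library. Without the block the adjusted p was 0.175, with a log2 fold change of 0.55 ± 0.16. *NPC2* overlaps *ISCA2* on the other strand, and the sources used here do not say whether counting used strand, so reads in the overlap cannot be told apart. *ISCA2* itself stood at 18.4 ± 3.01 CPM under vehicle and 18.8 ± 1.11 CPM under RGZ (SD, n = 3 each). *NPC1*, the partner of NPC2 in the membrane, had a log2 fold change of 0.17 ± 0.08 (adjusted p = 0.243).

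*CTSC* encodes cathepsin C, a dipeptidyl peptidase that activates serine proteases of immune cells. It was at 382, 370 and 383 CPM under vehicle and 405, 455 and 482 CPM under RGZ, so that the groups did not overlap and the difference was smallest in experiment 1. Under T0070907 it was at 329, 321 and 357 CPM, and under the combination at 374, 382 and 415 CPM. The T0070907 libraries lay below all vehicle libraries. The log2 fold change of RGZ against vehicle was 0.24 ± 0.06 (SE, adjusted p = 0.0088), and the call was lost without vehicle replicate 3, RGZ replicate 2 or RGZ replicate 3. Without the block the adjusted p was 0.197.

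*NEU1*, the sialidase that removes sialic acid from glycoproteins and glycolipids, was at 21.7, 26.7 and 24.5 CPM under vehicle and 26.0, 31.6 and 35.1 CPM under RGZ. The groups overlapped, because RGZ in experiment 1 lay below vehicle in experiment 2, but RGZ was higher within each experiment. Its log2 fold change was 0.35 ± 0.10 (SE, adjusted p = 0.0256 with the block and 0.298 without), and DESeq2 with the block did not call it (adjusted p = 0.0724). *PSAP* was at 370, 439 and 459 CPM under vehicle and 430, 499 and 501 CPM under RGZ, which also overlapped, with a log2 fold change of 0.18 ± 0.05 (adjusted p = 0.0364 with the block and 0.583 without). *PSAP* was called in 3 of 12 fits that left out 1 library, and leaving out any vehicle or RGZ library was enough to lose it. *NEU1* was called in 8 of 12, and lost without vehicle replicate 1 or 3 or RGZ replicate 2 or 3. *NEU1* under T0070907 and under the combination had 21.6 to 25.5 CPM and 26.1 to 30.1 CPM, and *PSAP* 391 to 449 CPM and 404 to 479 CPM.

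*CTSF*, a lysosomal cysteine protease, was the member called lower. It was at 22.3, 26.3 and 30.5 CPM under vehicle, 19.2, 18.3 and 23.8 CPM under RGZ, 25.2, 28.7 and 36.0 CPM under T0070907, and 27.4, 22.9 and 33.8 CPM under the combination. Within each experiment the RGZ library was the lowest of the 4, while the groups overlapped. The log2 fold change of RGZ against vehicle was -0.37 ± 0.10 (SE, adjusted p = 0.0244 with the block and 0.513 without). *CTSF* was called in 8 of 12 fits that left out 1 library, and lost without vehicle replicate 2 or 3 or RGZ replicate 2 or 3. DESeq2 with the block did not call it (adjusted p = 0.0651).

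**Figure D2:**
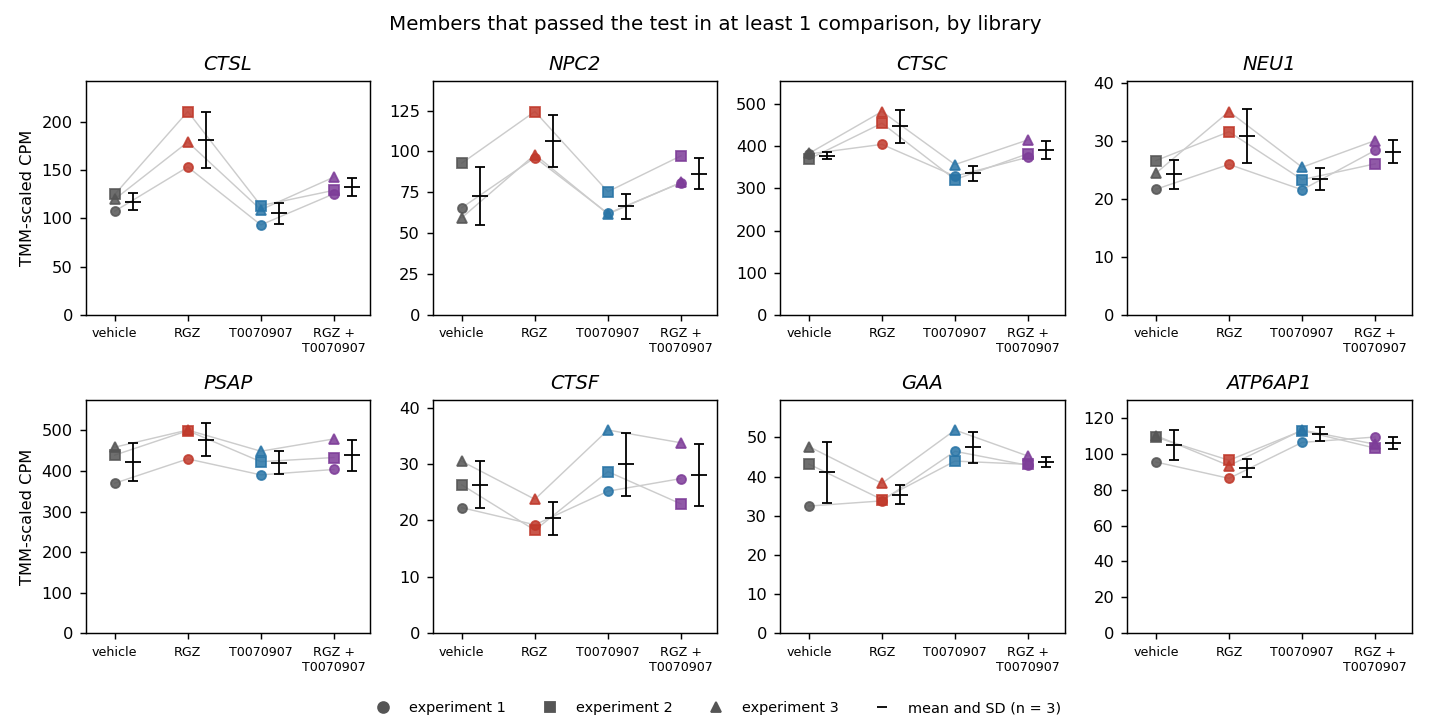
TMM-scaled CPM, by condition, of the 8 members that passed edgeR's test with the replicate block in at least 1 comparison. Without the block only CTSL passed. Each experiment has a symbol, grey lines join libraries of an experiment, and the mean with SD (n = 3) stands beside them. The RGZ libraries of CTSL, at 153 to 211 CPM, lie above all others, and the RGZ library of CTSF is the lowest of each experiment.

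The other members did not pass the test for RGZ. Among the regulators, *TFEB* was at 2.16, 3.33 and 1.77 CPM under vehicle and 2.70, 3.43 and 1.83 CPM under RGZ, from 15 to 30 counts per library, and its log2 fold change of 0.13 ± 0.27 (adjusted p = 0.824) was not resolved at this depth. *TFE3* was at 131, 150 and 120 CPM under vehicle and 129, 120 and 119 CPM under RGZ, with a log2 fold change of -0.12 ± 0.07 (adjusted p = 0.368). The difference lay mostly in experiment 2, and the groups overlapped. The glycoproteins that line the lysosome's membrane had log2 fold changes of -0.02 ± 0.05 for *LAMP1* and -0.13 ± 0.06 for *LAMP2* (adjusted p = 0.862 and 0.239), and the abundant *CD63* of 0.15 ± 0.07 (adjusted p = 0.191).

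The remaining soluble enzymes and transporters did not pass the test. The proteases *CTSA*, *CTSB*, *CTSD* and *CTSZ* had log2 fold changes between -0.13 and -0.01. That of *CTSK* was -0.41 ± 0.20 (adjusted p = 0.245), with log2 ratios of -1.27, -0.10 and -0.06 in experiments 1, 2 and 3, so that its size came from experiment 1. The glycosidases *HEXA*, *GAA*, *GLA*, *GLB1* and *GUSB*, which take sugars off glycolipids and glycans, were between -0.21 and 0.11. The lysosomal protein *GRN*, the tripeptidyl peptidase *TPP1* and the thioesterase *PPT1* were between -0.04 and -0.03. The cation channel *MCOLN1* was at -0.05 and the membrane protein *CLN3* at 0.06.

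Of the proton pump, which acidifies the lysosome, *ATP6V0D1*, *ATP6V1H* and *ATP6V1A* had log2 fold changes between -0.09 and 0.06. The accessory subunit *ATP6AP1* was at 95.4, 109 and 110 CPM under vehicle and 86.3, 96.4 and 93.4 CPM under RGZ, lower within every experiment, with a log2 fold change of -0.19 ± 0.06 (adjusted p = 0.077). Of the 37 tested members 22 had log2 fold changes below 0 and 15 above, while 47.6% of all genes were above 0. Among the 6 autophagy genes, 5 were below 0 and 1 above, and none passed. The largest was that of *WIPI1*, which binds the lipid PI3P on forming autophagosomes, at 0.25 ± 0.14 (adjusted p = 0.329), and *ULK1*, *UVRAG* and *ATG9A* were between -0.13 and -0.04. *MAP1LC3B* and *GABARAPL1* encode proteins that are joined to lipid on the growing autophagosome. *MAP1LC3B* was at 64.6, 71.3 and 66.1 CPM under vehicle and 67.5, 69.6 and 64.1 CPM under RGZ, with a log2 fold change of -0.01 ± 0.07 (adjusted p = 0.975). *GABARAPL1* was at 53.0, 55.7 and 57.4 CPM under vehicle and 45.7, 48.6 and 49.0 CPM under RGZ, which did not overlap, with a log2 fold change of -0.21 ± 0.09 (adjusted p = 0.174). *MAP1LC3B* overlaps *FBXO31* in the annotation, so its counts could include reads of that gene.

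Libraries of RGZ and vehicle did not overlap for 3 members that were higher, *CTSC*, *CTSL* and *NPC2* (8.11%, against 9.2% of all tested genes), and for 2 that were lower, *LAMP2* and *GABARAPL1* (5.41%, against 7.57%). Counted within experiments, 10 members were higher under RGZ in all 3 (27%, against 24.6% of all genes) and 9 lower (24.3%, against 25.8%). These shares were near those of all genes, and the members as a group were not set apart by them.

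Wider lists of 110 other genes of the pathway, 109 of them tested, gave 0 calls without the block, with 12 at an unadjusted p under 0.05, and 4 higher and 4 lower with it (3.67% each, against 4.95% and 4.35% of all genes). These shares were no higher than those of all genes. Among the called genes the largest change was that of *SQSTM1*, which encodes the autophagy cargo receptor p62. It was at 525, 743 and 534 CPM under vehicle, 858, 1283 and 857 CPM under RGZ, 441, 518 and 416 CPM under T0070907, and 610, 739 and 627 CPM under the combination. RGZ libraries were above all others, and the log2 fold change against vehicle was 0.73 ± 0.07 (SE, adjusted p = 6.93e-07 with the block and 0.0743 without). The other genes that rose were *CD68* (0.42 ± 0.07, adjusted p = 0.000827), a heavily glycosylated lysosomal membrane protein, *LGMN* (0.42 ± 0.10, adjusted p = 0.0108), the asparaginyl endopeptidase legumain, and *RRAGA* (0.20 ± 0.06, adjusted p = 0.0435), a GTPase that recruits mTORC1 to the lysosome. Those that fell were *SORT1* (-0.45 ± 0.08, adjusted p = 0.00083), a sorting receptor, *ABCB9* (-0.37 ± 0.09, adjusted p = 0.0093), a lysosomal peptide transporter, *MITF* (-0.34 ± 0.08, adjusted p = 0.00997), and the autophagy kinase *ULK2* (-0.59 ± 0.18, adjusted p = 0.0496). Of 30 other hydrolases and activators, 22 had log2 fold changes below 0 and 8 above, with a median of -0.14, while 47.6% of all tested genes were above 0. Beside these, the lineage marker *S100B* was at 23.4, 15.1 and 38.5 CPM under vehicle and 10.2, 6.62 and 21.8 CPM under RGZ, a log2 fold change of -1.02 (adjusted p = 3.73e-05), and its part in the results was not tested.

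**Figure D3:**
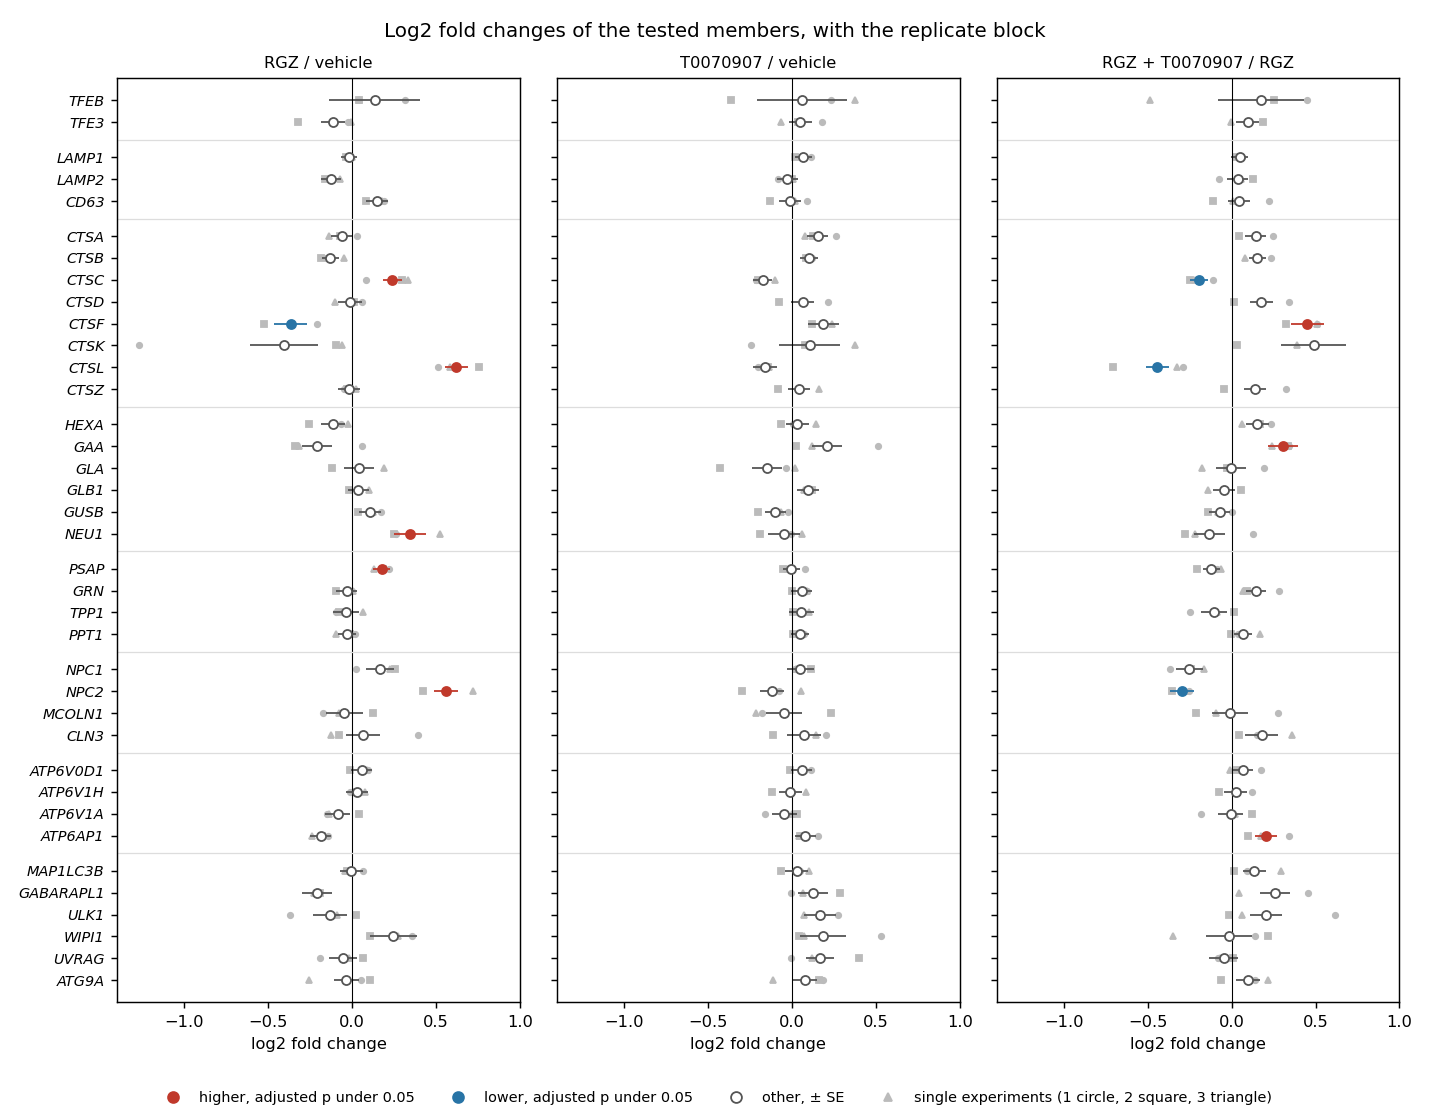
Log2 fold changes of the 37 tested members from edgeR with the replicate block, in 3 comparisons, with bars for the SE, grey symbols for the log2 ratio in each experiment, and colour for an adjusted p under 0.05. CTSL and NPC2 are at 0.62 and 0.56 in the left panel and at -0.44 and -0.30 in the right panel, no member is coloured in the middle panel, and CTSK in experiment 1 lies far from the other experiments.

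The comparison of T0070907 with vehicle asks whether the antagonist alone moved these genes. edgeR called 0 members without the block and 0 with it, DESeq2 called 0 in both fits, and 1 and 4 members had an unadjusted p under 0.05 in edgeR's fits. The share of all tested genes called by edgeR was 0.0074% without the block and 0.91% with the block, and DESeq2 called 21 and 114 genes. *CTSC* had a log2 fold change of -0.17 ± 0.06 (adjusted p = 0.22 with the block), lower in all 3 experiments and with no overlap, and *CTSL* of -0.16 ± 0.07 (adjusted p = 0.457). Groups did not overlap for 1 member that was higher, the autophagy kinase *ULK1* (43.6 to 47.0 CPM against 36.2 to 41.9 CPM), which is 2.7% against 3.6% of all genes, and for 1 that was lower, *CTSC* (2.7%, against 4.07%). All 6 autophagy members had log2 fold changes above 0, from 0.03 to 0.19, and none passed the test. Of the 37 tested members 25 were above 0, and of all genes 50.9%. *TFE3* was at 148, 154 and 115 CPM, *TFEB* at 2.54, 2.60 and 2.33 CPM, *MAP1LC3B* at 66.8, 68.2 and 71.0 CPM and *GABARAPL1* at 52.8, 67.9 and 60.1 CPM, and all 4 overlapped their vehicle libraries. In the wider lists 1 gene of 109 was called, *SQSTM1*, with a log2 fold change of -0.38 (adjusted p = 0.00667 with the block and 1 without).

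The comparison of the combination with RGZ alone asks what the antagonist changed in the presence of the agonist. It shares the RGZ libraries with the comparison above, so a chance deviation of these libraries enters both with opposite signs. edgeR called 0 members without the block, with 6 at an unadjusted p under 0.05, while 0.311% of all tested genes were called higher and 0.924% lower. With the block 3 members were called higher (8.11%, against 5.55% of all genes) and 3 lower (8.11%, against 5.88%). Without combination replicate 2 these were 8 (21.6%, against 9.44%) and 4 (10.8%, against 9.41%). Without RGZ replicate 3 they were 1 and 1 (2.63% each, against 2.81% and 3.45%). DESeq2 called 1 member without the block, *CTSL*, among 318 of all genes. With the block it called 4, *CTSL*, *NPC2*, *CTSC* and *CTSF*, among 1071 of all genes. *CTSL* was lower by a log2 fold change of -0.44 ± 0.07 (SE, adjusted p = 0.000268 with the block and 0.0933 without), *NPC2* of -0.30 ± 0.07 (adjusted p = 0.00883 and 0.46), and *CTSC* of -0.19 ± 0.06 (adjusted p = 0.0289 and 0.289). *CTSF* was higher by 0.45 ± 0.10 (adjusted p = 0.00511 and 0.306). With the block, *CTSL* and *CTSF* were called in 12 of 12 fits that left out 1 library, *NPC2* in 11, all but that without RGZ replicate 3, and *CTSC* in 9, not without RGZ replicate 2 or 3 or combination replicate 3.

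*GAA*, the acid α-glucosidase that degrades glycogen in lysosomes, and *ATP6AP1* were also called higher in the combination than under RGZ. *GAA* was at 33.8, 34.1 and 38.3 CPM under RGZ and 42.9, 43.1 and 45.2 CPM under the combination, which did not overlap, and its log2 fold change was 0.31 ± 0.09 (SE, adjusted p = 0.0364 with the block and 0.32 without). It was called in 7 of 12 fits that left out 1 library, the call being lost without any of the 3 RGZ libraries, T0070907 replicate 3 or combination replicate 1, and DESeq2 with the block gave an adjusted p of 0.0656. Under vehicle *GAA* was at 32.5, 43.2 and 47.7 CPM, a range that held all 3 RGZ and all 3 combination libraries, and under T0070907 at 46.4, 44.0 and 51.9 CPM. *ATP6AP1* was at 109, 103 and 105 CPM under the combination, above all RGZ libraries and within the vehicle range, with a log2 fold change against RGZ of 0.20 ± 0.06 (adjusted p = 0.046 with the block and 0.248 without). It was called in 3 of 12 fits that left out 1 library, and neither DESeq2 nor limma-voom with the block called it (adjusted p = 0.0974 and 0.0505). Libraries did not overlap for 5 members that were higher, *CTSD*, *GAA*, *ATP6AP1*, *MAP1LC3B* and *GABARAPL1* (13.5%, against 8.62% of all genes), and for 1 that was lower, *CTSL* (2.7%, against 9.09%). *MAP1LC3B* was at 71.8, 70.5 and 78.4 CPM under the combination, with a log2 fold change of 0.13 ± 0.07 (adjusted p = 0.229), and *GABARAPL1* at 62.8, 58.5 and 50.6 CPM, with 0.26 ± 0.09 (adjusted p = 0.0741).

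In the same comparison the wider lists had 0 genes called without the block, with 18 at an unadjusted p under 0.05, and with it 10 of 109 called higher (9.17%, against 5.55% of all genes) and 5 lower (4.59%, against 5.88%). The values that follow are from the fit with the block, and none of these genes was called without it. *SQSTM1* fell, with a log2 fold change of -0.58 (adjusted p = 1.02e-05), and so did *CD68* (-0.39, adjusted p = 0.00151). *SORT1* (0.32, adjusted p = 0.0114), *ABCB9* (0.38, adjusted p = 0.008) and *MITF* (0.27, adjusted p = 0.0377) rose. Of the 30 other hydrolases and activators, 5 were called higher and 0 lower, among them *AGA* (0.40, adjusted p = 0.00728), which cleaves the bond between sugar chains and asparagine, and *FUCA1* (0.42, adjusted p = 0.00815), a fucosidase. Of these 30 genes 28 had log2 fold changes above 0, with a median of 0.17, beside 52.4% and a median of 0.01 over all tested genes. Against vehicle, 24 of the 30 were above 0 under T0070907 alone (median 0.075, 50.9% of all genes above 0). Under the combination 20 were (median 0.057, 49.8% of all genes).

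The combination was also compared with vehicle and with T0070907 alone. Against vehicle, edgeR called 0 members and 0% of all tested genes without the block and 0 members and 0% with it, and 0 and 6 members had an unadjusted p under 0.05. DESeq2 called 0 members and 0 genes without the block. With the block it called 1 of the 22 members to which it gave an adjusted p, *NPC2*, among 227 of all genes. All 8 tested cathepsins had log2 fold changes above 0, from 0.02 to 0.18, and none passed. Of the 37 tested members 29 were above 0, and of all genes 49.8%. *CTSL* was at 0.18 ± 0.07 (adjusted p = 0.164) and *NPC2* at 0.26 ± 0.07 (adjusted p = 0.102). Libraries did not overlap for 1 member that was higher, *CTSL* (2.7%, against 5.67% of all genes), and for 0 that were lower (6.57% of all genes). The count with the block depended on 2 libraries. Without the combination library of experiment 2, 6 members were called higher, *CD63*, *CLN3*, *CTSD*, *CTSL*, *CTSZ* and *NPC2* (16.2%, against 10.2% of all genes), and 0 lower (8.82% of all genes), so that the calls over all genes grew as well. Without the vehicle library of experiment 2, *CD63* and *NPC2* were called higher (5.26%, against 3.43% of all genes) and 0 members lower (2.94% of all genes).

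Against T0070907 alone, which asks what the agonist changed in the presence of the antagonist, edgeR called 0 members without the block, with 5 at an unadjusted p under 0.05 (all tested genes, 0.037% higher and 0% lower). DESeq2 called 0 of the 25 members to which it gave an adjusted p, and 83 of all genes. With the block 3 members were called higher (8.11%, against 4.55% of all genes) and 0 lower (4.22% of all genes), and DESeq2 called the same 3 among 880 of all genes. *NPC2* rose by a log2 fold change of 0.38 ± 0.07 (SE, adjusted p = 0.00514), *CTSL* by 0.34 ± 0.07 (adjusted p = 0.0102) and *CTSC* by 0.22 ± 0.06 (adjusted p = 0.0258), and without the block their adjusted p was 0.307, 0.261 and 0.261. No member was called without the T0070907 library of experiment 2 or without the combination library of experiment 3, and without the combination library of experiment 2 there were 5 called higher (13.5%, against 13.1% of all genes) and 2 lower (5.41%, against 11.4%). Libraries did not overlap for 6 members that were higher, *CTSC*, *CTSL*, *GUSB*, *NEU1*, *NPC2* and *CLN3* (16.2%, against 8.96% of all genes), and for 3 that were lower, *TPP1*, *ULK1* and *UVRAG* (8.11%, against 9.72%). The wider lists had 0 calls without the block, with 15 at an unadjusted p under 0.05. With it 3 genes were called higher (2.75%, against 4.55% of all genes), among them *SQSTM1* (0.53, adjusted p = 0.000143), and 7 lower (6.42%, against 4.22%), the largest being *FNIP2* (-0.91, adjusted p = 0.00117), which regulates the Rag GTPases at the lysosome.

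Whether the effect of RGZ differed with and without T0070907 was tested by the interaction of both compounds. DESeq2 called 0 members in both fits (1 and 52 of all genes). edgeR called 0 members without the block (0% of all tested genes) and 0 with it (0.281%), with 0 and 2 members at an unadjusted p under 0.05. The 2 were *CTSL*, with a difference in log2 fold change of -0.28 ± 0.10 (SE, adjusted p = 0.351), and *NPC1*, with -0.30 ± 0.12 (adjusted p = 0.398). For *CTSL* the log2 fold change of RGZ was 0.62 against vehicle and 0.34 in the presence of T0070907, and for *NPC2* 0.56 and 0.38. A smaller effect of RGZ in the presence of the antagonist was thus not established for any member, and these intervals do not exclude one.

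Members also differed in what their variation followed. Of the variance of log2 CPM over the 12 libraries, the experiment took a median of 29.7% over the 37 members and 27.7% over all tested genes, and the treatment 34.9% and 34.3%. *LAMP1* (80.9%), the growth factor precursor *GRN* (80.8%), *CTSZ* (76.6%) and the cysteine protease *CTSB* (71.1%) followed the experiment. *GRN*, for example, was at 114, 160 and 134 CPM under vehicle and 114, 150 and 134 CPM under RGZ, with experiment 1 lowest and experiment 2 highest in both. *CTSL* (83.9%), *CTSC* (81.1%), *ATP6AP1* (70.8%) and *GUSB* (69.6%), the β-glucuronidase, followed the treatment. *GUSB* passed no test, and its levels spanned 64.1 to 76.9 CPM over the 12 libraries. *CTSK* had the widest range, 1.98 on the log2 scale, of which 70% lay between experiments, and its counts were 26 to 126 per library.

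**Figure D4:**
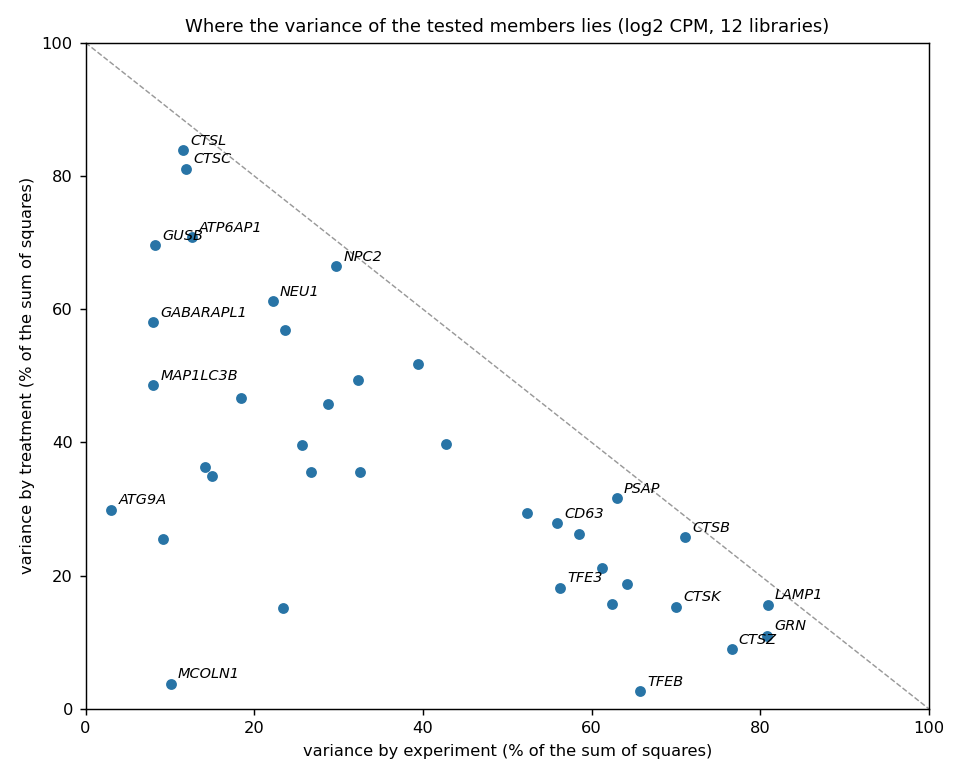
Share of the sum of squares of log2 CPM over the 12 libraries that lies between the 3 experiments (x axis, %) and between the 4 treatments (y axis, %), 1 point per tested member, with the dashed line where both add to all of it. CTSL and CTSC are at 83.9% and 81.1% by treatment, and LAMP1 and GRN at 80.9% and 80.8% by experiment.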

How the data were processed

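RNA of A375 cells was sequenced under 4 conditions, each in 3 independent experiments (12 libraries). Raw counts were deposited: the authors give counts of reads per gene for 23705 genes, by NCBI gene number and without normalization, from libraries of the TruSeq RNA protocol. Per the submitters' processing notes the build was hg19. The aligner, the counter, the annotation and the use of strand are not given in the sources used here. The table held 0 columns of other samples.

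Counts were analysed in R 4.3.3. edgeR 4.0.16 was used for TMM scaling, for filtering with filterByExpr and for a quasi-likelihood fit of all 12 libraries, in which each condition was a group. Contrasts were two-sided, and genes with a Benjamini-Hochberg adjusted p under 0.05 over the 13522 tested genes were called. The SE of a log2 fold change is approximate, being the absolute change over the root of F. Titles of the samples number the independent experiments, which gave the pairing of libraries, and deviations of same-numbered libraries from their condition means correlated at 0.539 on average (0.0774 to 0.747 over 18 pairs). The fit with the experiment as replicate block was therefore printed beside that without it. The common dispersion was 0.0193 without the block and 0.00333 with it.

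Alternatives were DESeq2 1.42.0, limma-voom (limma 3.58.1), DESeq2's size factors, no filter, a minimum of 10 counts per library, models restricted to the compared groups, and leaving out each library. The members and lists were chosen with earlier results of these data known. Named with values in every library were members called in any comparison with or without the block, *TFEB*, *TFE3*, *MAP1LC3B* and *GABARAPL1*, and, of the wider lists, up to 5 called genes in each direction for RGZ against vehicle. Other genes were named after their values were seen. Transcript lengths (GENCODE, longest transcript) were known for 98.4% of the tested genes. All tests were tried on simulated counts.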

Additional observations from a re-analysis of the deposited data

How the results depend on the processing

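Without the replicate block, the count of 1 member called for RGZ against vehicle became 6 with the replicate block, 2 with DESeq2, 4 with DESeq2 with the block, 6 with limma-voom with the block and 0 in a model of only the groups compared, and ran from 0 to 1 over fits without 1 library. The count of 0 for the combination against RGZ became 6 with the block, 1 with DESeq2, 4 with DESeq2 with the block and 5 with limma-voom with the block, and ran from 0 to 1 without 1 library. The count of 0 for the combination against T0070907 became 3 under each of the 3 tools with the block, and that of 0 for the combination against vehicle became 1 with DESeq2 with the block. Of all genes, limma-voom with the block called 1220 for RGZ against vehicle, 1466 for the combination against RGZ and 1009 for the combination against T0070907. With the block, fits without 1 library gave 2 to 9 calls for RGZ against vehicle, 2 to 12 for the combination against RGZ, 0 to 6 for the combination against vehicle and 0 to 7 for the combination against T0070907. The 9 (23.7%) came without the combination library of experiment 1, where 14.9% of all genes were called. The 6 (16.2%) and the 7 (18.9%) came without that of experiment 2, where 19% and 24.5% of all genes were called. The lowest counts for RGZ were without vehicle replicate 3, RGZ replicate 2 or RGZ replicate 3 (2 each, 5.26%, against 5.23%, 5.55% and 6.04% of all genes). Those for the combination against RGZ were without RGZ replicate 2 (3, 7.89%, against 7.44%) or RGZ replicate 3 (2, 5.26%, against 6.25%). The highest count for the combination against RGZ, 12 members (32.4%), came without the combination library of experiment 2, where 18.9% of all genes were called. The cause was not tested. Counts for T0070907 against vehicle and for the interaction stayed at 0 under every alternative run. For the named members, each alternative was set against edgeR's fit without the block or against that with it. Direction and status were kept in 431 cases, which include genes called in neither fit and so do not count calls that held. The threshold was passed in the alternative alone in 41 cases and in the edgeR fit alone in 53, and the direction turned in 0. With 3 experiments of 1 cell line, and 15 to 30 counts for *TFEB* under vehicle and RGZ, small changes of low genes could not be resolved.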
